A study of Arabidopsis thaliana with 12 samples.

Results

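Seedlings of 2 Arabidopsis thaliana mutants, gun1-1 and abi4-102, were compared on plain medium, without the antibiotic lincomycin. The comparison took the 2 gun1-1 arrays and the 2 abi4-102 arrays whose sample titles name that line and no lincomycin, which is 4 of the 12 arrays of the series. The remaining 8 arrays hold 2 arrays each of Col-0 without lincomycin and of gun1-1, abi4-102 and Col-0 with lincomycin. Both mutants are recorded in the Col-0 ecotype, and Col-0 is the wild type. The whole seedlings were 5 days old and had been grown at 21 °C in light/dark cycles at 20 µmol of light, on half-strength Murashige and Skoog medium with 1% sucrose, which all groups shared. Where lincomycin was given, the treatment text states 220 µg/ml and the source text 200 µg/ml. For gun1-1 replicate 2 the genotype entry lists every line of the study while its title names gun1-1, so the title was used and results are also given without that array. Total RNA was hybridised to the Affymetrix ATH1 array, and each value is a log2 signal that the authors summarised with the robust multi-array average (RMA).

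GUN1 is a chloroplast pentatricopeptide repeat protein, and mutants in it keep photosynthesis genes of the nucleus active when the plastid is damaged. The wild type lowers these genes, a response known as plastid-to-nucleus retrograde signalling. ABI4 is an AP2-type transcription factor first found through its role in the response of seeds and seedlings to abscisic acid and to sugar. Lincomycin blocks protein synthesis in plastids and is widely used to provoke the retrograde response. Neither mutated locus, AT2G31400 for GUN1 and AT2G40220 for ABI4, had a probe set in the annotation used here, so the genotype labels could not be checked from the transcript of the mutated gene, which was not analysed here.

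The 12 arrays had medians between 5.44 and 5.52, and replicates of a group correlated at 0.990 to 0.996 across probe sets. Whether replicates were grown as separate cultures is not recorded, so the p-values here reflect no more than the spread between these arrays, and that spread may be technical. Of 22746 probe sets tested, 13513 named 1 gene, 503 named several and 8730 were unnamed in the platform annotation. Of 9 root markers and of 6 epidermis and stomata markers, none passed the test between the mutants. The root markers had a median log2 difference of -0.24, with 2 of the 9 above 0, and their summed signal on the linear scale was 6970 and 6380 in gun1-1, 6940 and 8590 in abi4-102, and 6120 and 6410 in Col-0. The epidermis and stomata markers had a median of 0.23 with all 6 above 0, and summed to 394 and 401 in gun1-1, 363 and 342 in abi4-102, and 415 and 419 in Col-0. Their part in the results was not tested, and in whole seedlings fewer cells of a type and less RNA per cell cannot be told apart.

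In limma's test, 48 of 22746 probe sets (0.211%) passed at a Benjamini-Hochberg adjusted p under 0.05. Of these, 30 (0.132%) were lower in gun1-1 than in abi4-102 and 18 (0.0791%) were higher. The median difference over all probe sets was 0.02, and 55.4% of them lay above 0. In all 48 the arrays of one line lay beyond both arrays of the other, which was also so in 42.5% of all probe sets tested. A difference of at least 2-fold was reached by 32 of the 48, of which 22 were lower and 10 higher in gun1-1. The smallest difference that passed was 1.63-fold, and standard errors of the 48 ran between 0.0999 and 0.26 on the log2 scale. At an unadjusted p under 0.05, 1232 probe sets (5.42%) were higher and 1091 (4.8%) lower in gun1-1.

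Leaving out 1 of the 4 compared arrays at a time changed the number of calls but not their signs. Without gun1-1 replicate 2, whose label is mixed, 33 probe sets passed and 22 of them were among the 48. Without gun1-1 replicate 1 also 33 passed, 19 of them among the 48. Without abi4-102 replicate 1 the number was 50 with 30 shared, and without abi4-102 replicate 2 it was 18 with 17 shared. All 48 kept their sign in each of these 4 fits, and 17 passed in every one. The named genes among the 17 were QQS, AT2G15560, AT5G03090, AT2G20460, AT5G26270, LCR68 and AT5G50310. Without gun1-1 replicate 2 these passed together with AT5G26020, AT5G22580 and AT2G05540, and the other named genes did not.

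QQS was the named gene with the largest fold. It encodes a small protein known to affect starch content, and it belongs to the sugar and starch genes. QQS read 3.44 and 3.55 in gun1-1, 6.80 and 6.94 in abi4-102, and 3.38 and 3.60 in Col-0. Both gun1-1 arrays stood at the level of Col-0 while both abi4-102 arrays were far above. The difference was -3.38 ± 0.12 (SE), which is 10.4-fold lower in gun1-1, with an adjusted p of 5.78e-07. With lincomycin the same gene read 3.58 and 3.48 in gun1-1, 7.37 and 7.59 in abi4-102, and 3.67 and 3.73 in Col-0, a difference of -3.96. Of the 29 sugar and starch genes measured, QQS alone passed; their median difference was 0.07, against 0.03 over all 13355 genes measured singly.

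The next differences lay in genes that the annotation names by locus alone. AT2G15560 read 4.75 and 4.61 in gun1-1, 7.49 and 7.47 in abi4-102, and 4.69 and 4.70 in Col-0, and it was 6.98-fold lower in gun1-1 than in abi4-102. AT5G03090 read 4.01 and 4.14 in gun1-1, 6.29 and 6.32 in abi4-102, and 3.70 and 3.82 in Col-0, a 4.69-fold lower level in gun1-1. AT5G26270 read 9.47 and 9.37 in gun1-1, 11.05 and 11.08 in abi4-102, and 9.25 and 9.28 in Col-0, and was 3.12-fold lower in gun1-1. In each of these 3 genes the mutants were widely apart and gun1-1 lay close to Col-0. Their adjusted p-values were 9.35e-07 for AT2G15560, 7.71e-06 for AT5G03090 and 2.85e-04 for AT5G26270. All 3 passed whichever of the 4 compared arrays was left out.

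**Figure D1:**
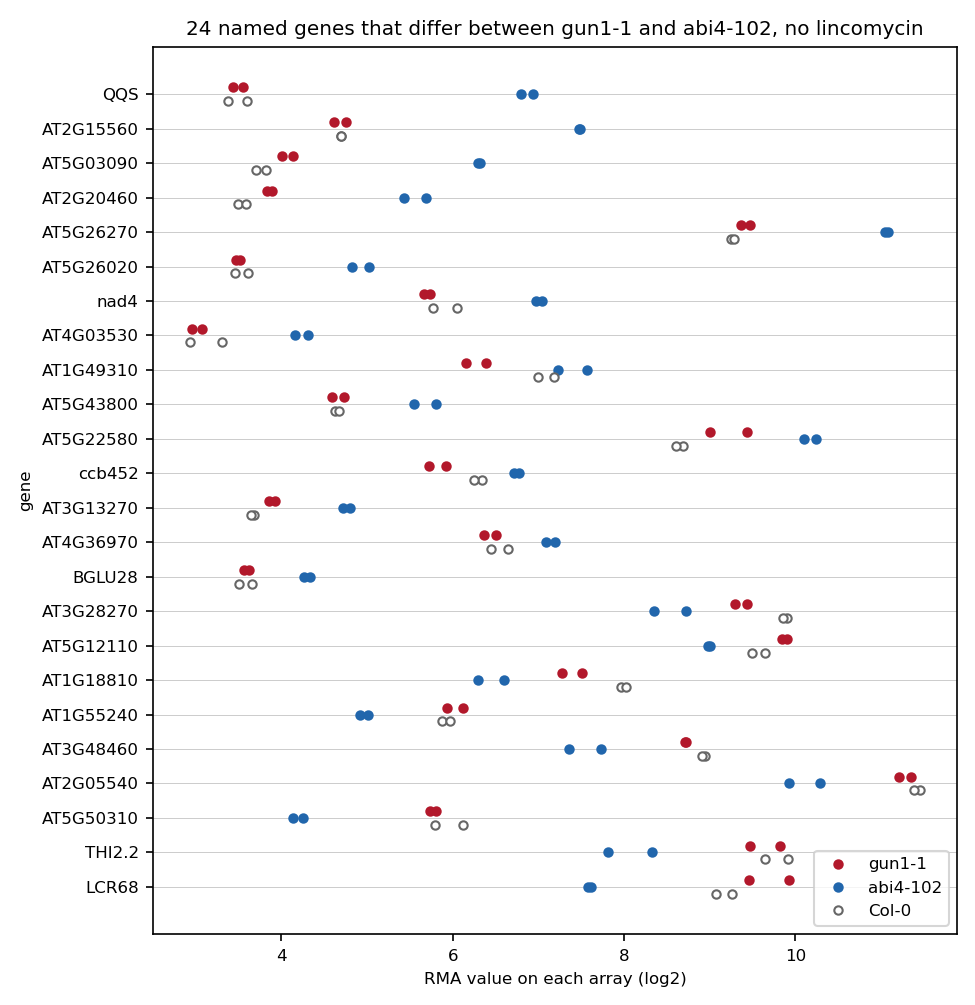
RMA value (log2) on each array without lincomycin for the 24 named genes that passed between gun1-1 and abi4-102, with 2 points per line. Points for gun1-1 are drawn above, abi4-102 on and Col-0 below each gene's line. The 15 genes in the upper part, QQS to BGLU28, are lower in gun1-1, and the 9 in the lower part, AT3G28270 to LCR68, are higher.

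Of the 15 named genes that were lower in gun1-1, 5 were pseudogenes. Of 989 probe sets whose gene RefSeq classes as a pseudogene, 5 passed (0.506%), all of them lower. Of 12443 probe sets for protein-coding genes, 17 passed (0.137%), 9 higher and 8 lower. The difference between those shares was not tested. AT2G20460 read 3.89 and 3.83 in gun1-1, 5.69 and 5.43 in abi4-102, and 3.49 and 3.59 in Col-0, a difference of -1.70 ± 0.19 (SE) with an adjusted p of 3.55e-03. AT5G26020 read 3.47 and 3.52 in gun1-1, 4.82 and 5.02 in abi4-102, and 3.46 and 3.61 in Col-0, a difference of -1.42. In both genes the gun1-1 arrays were near the low values of Col-0, and abi4-102 stood apart.

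The other 3 pseudogenes were AT4G03530, AT5G43800 and AT3G13270, with differences of -1.22, -1.02 and -0.86. Pseudogenes as a class had low signals, with a median at the 10.2th percentile of gun1-1 values, which depends on the probes as well as on the transcripts. Their median difference was 0.05, and 71.3% of them lay above 0, opposite to the 5 that passed. Of the 13355 genes measured singly, 57.2% lay above 0. At an unadjusted p under 0.05, 10 of the 989 were higher (1.01%) and 22 lower (2.22%) in gun1-1. Both shares were below those of the 13355 genes, 4.79% higher and 3.98% lower. Without gun1-1 replicate 2, AT4G03530, AT5G43800 and AT3G13270 no longer passed, with adjusted p-values of 0.161, 0.119 and 0.0526. On the arrays with lincomycin, 27 pseudogenes passed (2.73%), 2 higher and 25 lower in gun1-1, against 10.9% of all probe sets. Set against Col-0 on plain medium, abi4-102 had 10 pseudogenes that passed (1.01%), all higher, against 1.68% of all probe sets.

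Among probe sets naming 1 organelle-genome gene, 2 of the mitochondrion passed and none of the plastid. The gene nad4 encodes a subunit of respiratory complex I. It read 5.67 and 5.74 in gun1-1, 6.97 and 7.04 in abi4-102, and 5.77 and 6.05 in Col-0, and was lower in gun1-1 by a difference of -1.30 ± 0.16 (SE, adjusted p 8.67e-03). The gene ccb452 takes part in the assembly of c-type cytochromes. It read 5.72 and 5.92 in gun1-1, 6.77 and 6.71 in abi4-102, and 6.34 and 6.25 in Col-0, a difference of -0.92 with an adjusted p of 0.0218. For nad4 the gun1-1 arrays were close to Col-0, and for ccb452 Col-0 lay between the mutants.

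Both mitochondrial calls were lost without gun1-1 replicate 2, at adjusted p-values of 0.0505 for nad4 and 0.0607 for ccb452. With lincomycin nad4 read 6.60 and 7.11 in gun1-1 and 7.42 and 7.28 in abi4-102, and the difference of -0.49 did not pass (adjusted p 0.0822). Of the 16 mitochondrial genes measured, 3 were above 0 and 13 below, and the median difference was -0.24. The 2 that passed as lower compare with 15 of the 13355 genes measured singly. At an unadjusted p under 0.05, 5 of the 16 were lower (31.2%) and 1 higher (6.25%). Of the 13355 genes, 3.98% were lower and 4.79% higher. Among the 16, nad2, for a further complex I subunit, had the opposite sign to nad4 at 0.89 with an unadjusted p of 0.0153, and its arrays read 4.72 and 4.0 in gun1-1 and 3.78 and 3.16 in abi4-102. Its adjusted p was 0.334. Most of the mitochondrial transcripts thus lay below 0, and the opposite sign of nad2 did not pass.

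Of the 9 named genes that were higher in gun1-1, 2 encode small defence peptides. LCR68, also called PDF2.3, belongs to the plant defensin family of small cysteine-rich peptides. It read 9.46 and 9.92 in gun1-1, 7.58 and 7.61 in abi4-102, and 9.26 and 9.07 in Col-0. Its difference was 2.09 ± 0.16 (SE), 4.26-fold higher in gun1-1, with an adjusted p of 1.99e-04. THI2.2 encodes a thionin, a small antimicrobial peptide. It read 9.82 and 9.47 in gun1-1, 7.81 and 8.33 in abi4-102, and 9.65 and 9.91 in Col-0, a difference of 1.58 ± 0.25 (SE, adjusted p 0.0351).

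In THI2.2 the gun1-1 arrays stayed at the level of Col-0. In LCR68 both gun1-1 arrays lay above both Col-0 arrays, by a mean log2 difference of 0.52 that did not pass. The abi4-102 arrays were lower than Col-0 in both genes. LCR68 passed in each fit that left out 1 compared array, and THI2.2 in none of them. Of 34 defence genes measured, these 2 passed and 19 lay above 0, with a median difference of 0.01. The other defensins and thionins of the list did not pass. One beta-glucosidase passed in the other direction: BGLU28 read 3.62 and 3.56 in gun1-1, 4.33 and 4.26 in abi4-102, and 3.66 and 3.51 in Col-0, a difference of -0.70 (adjusted p 0.0351). BGLU28 was 1 of 21 beta-glucosidases measured, whose median difference was 0.01.

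The other named genes that were higher in gun1-1 are known here by locus. AT5G50310 read 5.73 and 5.80 in gun1-1, 4.25 and 4.14 in abi4-102, and 5.79 and 6.12 in Col-0, a 2.96-fold difference with an adjusted p of 3.64e-04. AT2G05540 read 11.35 and 11.21 in gun1-1, 10.29 and 9.92 in abi4-102, and 11.46 and 11.39 in Col-0, a difference of 1.18. Both genes had gun1-1 arrays near Col-0 and clearly above abi4-102. The differences of AT3G48460, AT1G55240, AT1G18810, AT5G12110 and AT3G28270 were 1.17, 1.06, 0.94, 0.88 and 0.82. Among these AT1G55240 and AT5G12110 passed in no fit that left out 1 compared array.

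The other named genes that were lower in gun1-1 had smaller differences. AT1G49310 read 6.15 and 6.39 in gun1-1, 7.23 and 7.57 in abi4-102, and 7.0 and 7.18 in Col-0, and here Col-0 lay nearer to abi4-102. AT5G22580 read 9.00 and 9.43 in gun1-1, 10.10 and 10.24 in abi4-102, and 8.69 and 8.61 in Col-0, a difference of -0.95. AT4G36970 differed by -0.71. The 2 called probe sets that name several genes, 244940_at and 267074_s_at, were both lower in gun1-1. Probe set 244940_at read 8.59 and 8.51 in gun1-1, 9.70 and 9.57 in abi4-102, and 8.86 and 8.83 in Col-0. Its difference was -1.08 in limma's test (adjusted p 7.72e-04), and that of 267074_s_at was -1.83.

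Of the 48 called probe sets, 22 were unnamed. Probe set 266680_s_at had the largest difference of all, reading 4.04 and 4.33 in gun1-1, 8.74 and 8.33 in abi4-102, and 3.75 and 4.03 in Col-0, a difference of -4.35 ± 0.18 (SE, adjusted p 9.89e-07). In the other direction, 257144_at read 6.33 and 6.57 in gun1-1, 3.98 and 3.86 in abi4-102, and 6.53 and 6.58 in Col-0, a difference of 2.53 ± 0.15 (SE, adjusted p 2.36e-05). In both probe sets gun1-1 and Col-0 were alike in level and abi4-102 stood far off. Probe sets whose names end in _s_at can take signal from several similar transcripts. Of the unnamed probe sets 13 were lower and 9 higher in gun1-1.

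Array signals of the 30 called probe sets lower in gun1-1 ran there from percentile 5.11 (267139_s_at) to 97.3 (258434_at). The median of the 30 was at the 39.8th percentile of all probe sets in gun1-1 and at the 58.2th in abi4-102. Under the 25th percentile, which by definition holds 25% of all probe sets, lay 9 of the 30 in gun1-1 and 0 in abi4-102. Because the 30 were picked as lower in gun1-1, a lower rank there than in abi4-102 was set by that choice. The 18 probe sets higher in gun1-1 had median percentiles of 89.8 in gun1-1 and 79.7 in abi4-102. Under the 25th percentile lay 0 of the 18 in gun1-1 and 1 in abi4-102. The largest upward difference, 257144_at, was at percentile 63.8 in gun1-1 and 29.4 in abi4-102. A percentile of signal depends on the probes as well as on the transcript. RMA shrinks differences between dim signals, so the folds of the dim genes may understate the change.

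Setting each mutant against Col-0 on plain medium gave very different counts. Of 22746 probe sets, 5 (0.022%) passed for gun1-1 against Col-0, of which 3 were higher (0.0132%) and 2 lower (0.00879%). For abi4-102 against Col-0, 383 (1.68%) passed, 208 higher (0.914%) and 175 lower (0.769%). These comparisons share the Col-0 arrays with each other and the mutant arrays with the comparison of the mutants, so they give side-by-side values and no separate test. Among the 48 probe sets, none passed for gun1-1 against Col-0 and 44 passed for abi4-102 against Col-0. Those that passed in neither were AT1G49310, ccb452, AT5G12110 and 250296_at. The absolute difference of the 48 against Col-0 had a median of 0.159 in gun1-1 and 1.24 in abi4-102, and a largest value of 0.85 in gun1-1 and 4.64 in abi4-102.

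The mean of gun1-1 was nearer to Col-0 than that of abi4-102 in 45 of the 48 probe sets. The exceptions were AT1G49310, ccb452 and 250296_at, where abi4-102 was nearer. AT1G49310 differed from Col-0 by -0.83 in gun1-1 and by 0.31 in abi4-102, and 250296_at by 0.81 in gun1-1 and by -0.19 in abi4-102. In 18 of the 48 the mean of Col-0 lay between the means of the mutants. How often each held over all 22746 probe sets was not counted, so neither count sets the 48 apart. The count of calls for gun1-1 against Col-0 depended on the arrays used: it was 24 without gun1-1 replicate 2, 1 without Col-0 replicate 1 and 0 without Col-0 replicate 2 in limma's test, where 748 had an unadjusted p under 0.05. For abi4-102 against Col-0 the count was 189 without abi4-102 replicate 1, 49 without abi4-102 replicate 2, 58 without Col-0 replicate 1 and 39 without Col-0 replicate 2.

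**Figure D2:**
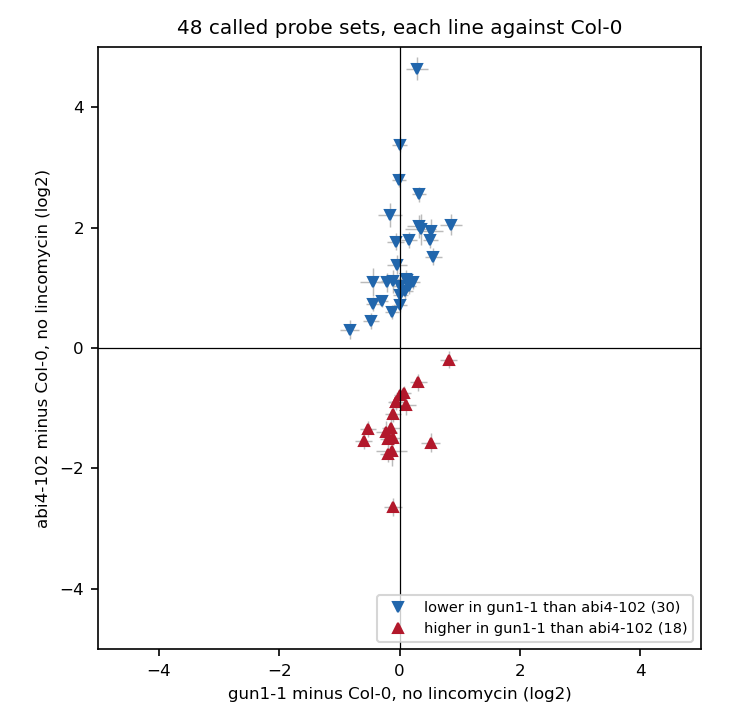
Log2 difference from Col-0 without lincomycin in gun1-1 (horizontal) and abi4-102 (vertical) for the 48 probe sets that passed between the mutants; grey bars are standard errors. Values spread up to 4.64 from 0 on the vertical axis and no further than 0.85 on the horizontal one.

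None of the 5 probe sets called for gun1-1 against Col-0 was among the 48. AT3G55920 read 5.82 and 5.59 in gun1-1, 5.61 and 5.49 in abi4-102, and 4.08 and 3.99 in Col-0. AT3G05170 read 4.32 and 4.24 in gun1-1, 4.25 and 4.29 in abi4-102, and 3.24 and 3.10 in Col-0. In both genes the 2 mutants were above Col-0, and the differences between the mutants were 0.15 and 0.01 with adjusted p-values of 0.801 and 0.997. AT3G44970 read 4.60 and 4.70 in gun1-1, 4.02 and 4.07 in abi4-102, and 6.05 and 6.15 in Col-0, and the mutants differed by 0.60 with an unadjusted p of 0.00735. Probe set 260551_at read 6.95 and 7.07 in gun1-1, 8.28 and 7.77 in abi4-102, and 9.06 and 9.18 in Col-0, and the mutants differed by -1.02 with an unadjusted p of 0.00338. In these 2 the arrays of the mutants did not overlap, with abi4-102 further from Col-0 in AT3G44970 and gun1-1 further in 260551_at. The remaining one, 266799_at, was higher than Col-0 in gun1-1 by 1.54.

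The same lines on lincomycin gave differences on other arrays, tested with the same estimate of spread per probe set. There, 2478 of 22746 probe sets (10.9%) passed between gun1-1 and abi4-102, with 1370 (6.02%) higher and 1108 (4.87%) lower in gun1-1. The count was 1450 without abi4-102 replicate 1 and 1538 without gun1-1 replicate 2 of the lincomycin arrays. Centring each array on its median shifted the higher share of these calls to 65.6%, against 55.3% as deposited. Of the 48 probe sets that passed on plain medium, 47 had the same sign with lincomycin and 39 passed in the same direction. These were 23 of the 30 lower and 16 of the 18 higher in gun1-1. The difference was larger in size with lincomycin in 27 of the 48. Among the named genes nad4 and AT1G55240 did not pass there, and AT1G55240 had a difference of 0.28 with an adjusted p of 0.322.

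**Figure D3:**
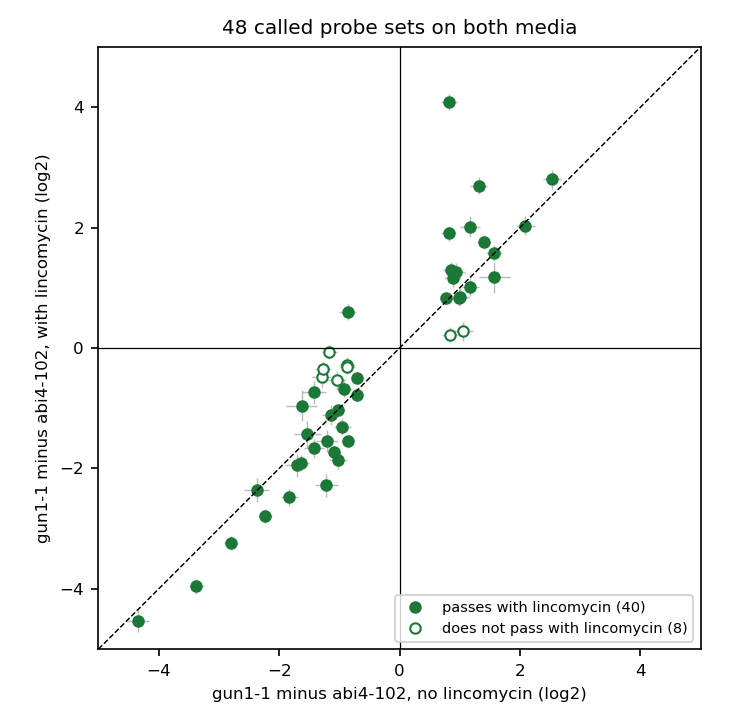
Log2 difference of gun1-1 minus abi4-102 without lincomycin (horizontal) and with lincomycin (vertical) for the 48 called probe sets; grey bars are standard errors, and the dashed line marks equal differences. Filled points, 40 of 48, pass with lincomycin, and 1 filled point, 266364_at, lies on the other side of 0.

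Whether the gap between the lines depended on the medium was tested as an interaction, which passed in 121 probe sets (0.532%), with 88 (0.387%) more positive and 33 (0.145%) more negative on lincomycin. It passed in 5 of the 48, a count that is not independent of the choice of the 48, since both use the arrays without lincomycin. The count of 121 fell to 22 without abi4-102 replicate 1 and 39 without gun1-1 replicate 1 of the lincomycin arrays. On plain medium it fell to 28 without abi4-102 replicate 1, 20 without abi4-102 replicate 2 and 54 without gun1-1 replicate 1. AT3G28270 had the largest interaction of the 48. With lincomycin it read 7.96 and 7.99 in gun1-1, 3.81 and 3.97 in abi4-102, and 3.89 and 3.97 in Col-0. On plain medium it read 9.29 and 9.43 in gun1-1, 8.72 and 8.35 in abi4-102, and 9.90 and 9.86 in Col-0. On lincomycin abi4-102 stood at the level of Col-0 and gun1-1 far above, a difference of 4.08 against 0.82 on plain medium. The interaction was 3.26 with an adjusted p of 6.9e-05. On plain medium the AT3G28270 call was lost without gun1-1 replicate 2, with a difference of 0.75 and an adjusted p of 0.181.

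Genes were next grouped by how Col-0 itself responded to lincomycin, on arrays other than the 4 that give the mutant difference. Both tests took the spread of a probe set from all 12 arrays, so they are not independent. In Col-0, 3948 probe sets (17.4%) passed, 1809 lower (7.95%) and 2139 higher (9.4%) with lincomycin. The 1809 that fell in Col-0 mostly had positive differences of gun1-1 minus abi4-102 on plain medium. Their median difference was 0.23, the middle of the distribution ran between 0.09 and 0.37 (quartiles), and 85.4% lay above 0. The 2139 that rose had a median of -0.10 with 29.9% above 0, and the 18798 that did not pass had a median of 0.02 with 55.5% above 0. Few single probe sets passed, with 9 called higher and 2 called lower among those that fell, and 0 called higher and 7 called lower among those that rose.

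At an unadjusted p under 0.05, 34.8% of the probe sets that fell in Col-0 were higher in gun1-1 and 1.82% lower, against 5.42% and 4.8% of all probe sets. Among those that rose, 1.87% were higher and 14.6% lower. Probe sets with a small shared spread pass more readily in both tests, so these shares depend in part on the grouping. For the 609 probe sets that fell at least 2-fold the median was 0.31, and for the 293 that rose at least 2-fold it was -0.21. The signs of both medians held without each of the 4 compared arrays, at 0.19 to 0.28 for those that fell and -0.11 to -0.08 for those that rose. Without Col-0 replicate 1 or 2 on plain medium the Col-0 response passed in 2322 or 2099 probe sets, and the medians over the smaller classes were 0.25 or 0.27 for those that fell and -0.10 or -0.12 for those that rose. Across all 22746 probe sets the difference between the mutants and the Col-0 response had a Pearson r of -0.292 and a Spearman rho of -0.319. This is a description across genes, which share the same arrays and are not independent replicates.

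**Figure D4:**
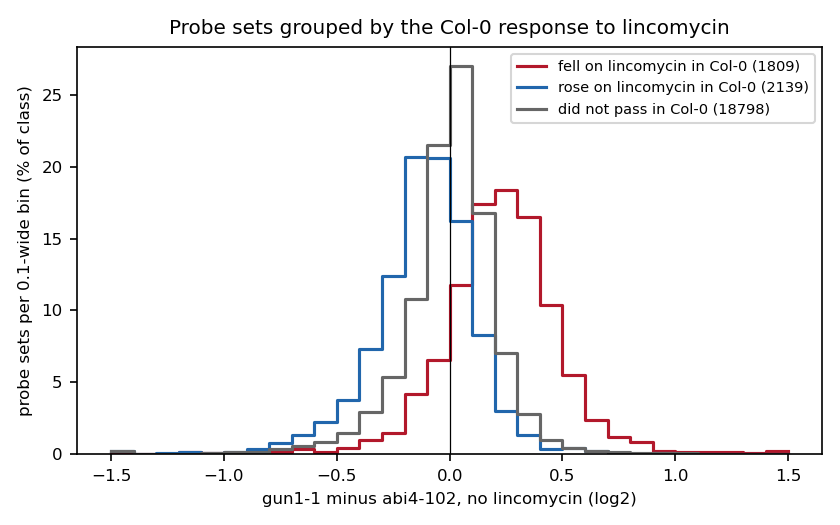
Distribution of the log2 difference of gun1-1 minus abi4-102 without lincomycin, as the percentage of probe sets in each 0.1-wide bin, for probe sets that fell, rose or did not pass with lincomycin in Col-0; values beyond 1.5 are drawn in the end bins. The class that fell is centred above 0 (median 0.23) and the class that rose below 0 (median -0.10).

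Among the 48 called probe sets, 9 of the 18 that were higher in gun1-1 fell on lincomycin in Col-0 and none rose. Of the 30 that were lower in gun1-1, 7 rose on lincomycin in Col-0, 2 fell and 21 did not pass. THI2.2 fell in Col-0 by 1.73 on the log2 scale and AT3G48460 fell by 2.55. QQS and LCR68 did not pass in Col-0, with changes of 0.21 and 0.16.

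Nuclear photosynthesis genes lay above 0 with 1 exception but none passed. Of the 30 measured, 29 were higher in gun1-1 than in abi4-102 by point estimate, against 57.2% of the 13355 genes measured singly, and the median difference was 0.25 against 0.03. In limma's test 0 of 30 passed, and at an unadjusted p under 0.05, 14 were higher and 0 lower. The median level of the list was 8.42 and 8.61 in the gun1-1 arrays, 8.26 and 8.15 in abi4-102, and 8.41 and 8.43 in Col-0. The abi4-102 arrays were the lowest of the 6. The median difference was between 0.18 and 0.32 without each of the compared arrays. The medians of this list and of the other organelle-related lists kept their sign after centring each array and after repeated quantile normalization.

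LPA2, which helps to assemble photosystem II, had the smallest p of that list. It read 7.56 and 7.62 in gun1-1, 7.14 and 6.99 in abi4-102, and 7.66 and 7.54 in Col-0, a difference of 0.52 ± 0.13 (SE, adjusted p 0.182). NdhN, a subunit of the chloroplast NADH dehydrogenase-like complex, read 8.42 and 8.55 in gun1-1, 8.04 and 8.05 in abi4-102, and 8.37 and 8.46 in Col-0, a difference of 0.44. In both genes gun1-1 overlapped or met the Col-0 values, and abi4-102 was below both. With lincomycin 23 of the 30 genes passed, all higher in gun1-1, with a median difference of 0.77. Of the 13355 genes measured singly, 705 passed as higher and 617 as lower with lincomycin.

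Most other nuclear genes for chloroplast functions had the same sign. Of 14 genes of tetrapyrrole and carotenoid synthesis, 12 lay above 0, with a median of 0.17 and none called, and 5 were higher and 0 lower at an unadjusted p under 0.05. Z-ISO, an isomerase of carotenoid synthesis, read 7.19 and 6.98 in gun1-1, 6.53 and 6.72 in abi4-102, and 7.10 and 7.07 in Col-0. GSA1, an aminotransferase of early tetrapyrrole synthesis, differed by 0.37 with an adjusted p of 0.339. PORB, a light-dependent enzyme of chlorophyll synthesis, had the opposite sign, with 7.88 and 8.02 in gun1-1 and 8.25 and 8.18 in abi4-102, against 7.15 and 7.40 in Col-0. With lincomycin 7 of the 14 genes passed as higher in gun1-1 and 1, hemf2, as lower.

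The 7 genes of the Calvin cycle and photorespiration all lay above 0, with a median of 0.21, none called and none at an unadjusted p under 0.05. SBPASE, a phosphatase of the Calvin cycle, differed by 0.31 and the locus AT1G32470 by 0.28. Of 23 nuclear genes for plastid gene expression, import and protein folding, 19 lay above 0, with a median of 0.13 and none called, and 7 were higher and 0 lower at an unadjusted p under 0.05. Cpn60beta2, a subunit of the chloroplast chaperonin, read 9.30 and 9.23 in gun1-1, 8.65 and 8.68 in abi4-102, and 9.18 and 9.06 in Col-0, a difference of 0.60 ± 0.13 (SE, adjusted p 0.126). CRR42, needed for the NADH dehydrogenase-like complex, differed by 0.54. With lincomycin 6 of the 7 Calvin and photorespiration genes and 8 of the 23 plastid expression genes passed as higher in gun1-1. This compares with 705 of the 13355 genes measured singly.

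**Figure D5:**
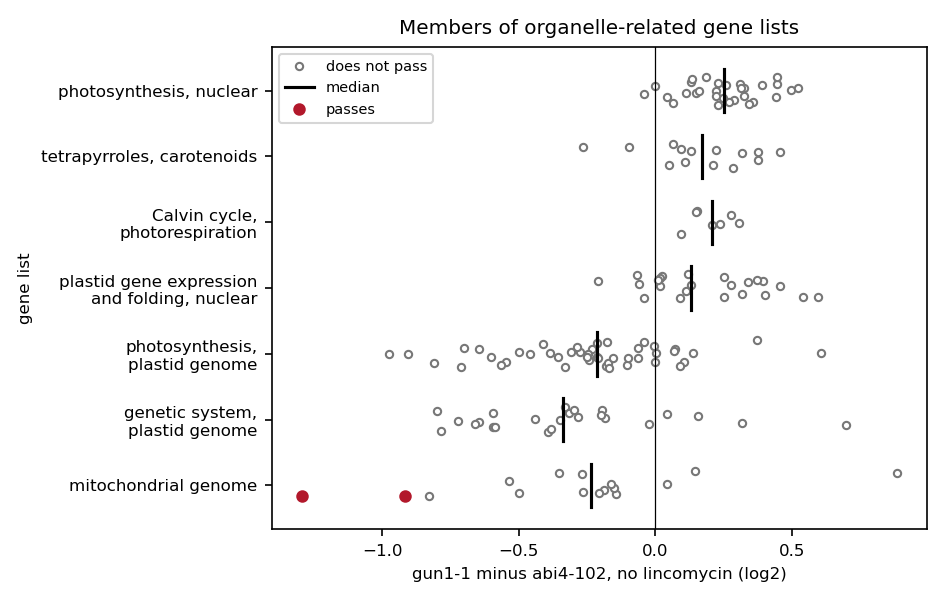
Log2 difference of gun1-1 minus abi4-102 without lincomycin for each member of 7 gene lists, with the list median as a black bar. Filled points passed the test, which were nad4 and ccb452 of the mitochondrial genome. The 4 nuclear lists have medians between 0.13 and 0.25, and the 3 organelle-genome lists have medians between -0.34 and -0.21.

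Probe sets naming 1 gene of the plastid genome mostly had the other sign, again with none called. Probe sets that name several genes, such as the called 244940_at, were not part of these lists. Of 45 plastid genes for photosynthesis, 37 lay below 0 with a median of -0.21, and 7 were lower and 0 higher at an unadjusted p under 0.05. Of 24 genes for the plastid's own transcription, translation and other housekeeping, 20 lay below 0 with a median of -0.34, and 7 were lower and 1 higher. The size of these medians depended on the gun1-1 arrays. For the housekeeping list the median was -0.64 without gun1-1 replicate 2 and -0.11 without gun1-1 replicate 1, and for the photosynthesis list it was -0.33 and -0.10 in those fits. Against Col-0, the housekeeping list had a median difference of -0.27 in gun1-1 and 0.08 in abi4-102. These values were -0.25 and -0.10 for the photosynthesis list, and -0.25 and -0.05 for the mitochondrial genes. The Col-0 arrays themselves differed, with median levels of the housekeeping list of 8.41 and 8.88. No gene of the 2 plastid lists passed against Col-0 in either mutant. With lincomycin 19 of the 24 and 26 of the 45 passed, all lower in gun1-1, against 617 lower of the 13355 genes measured singly.

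The gene rpoC1, for a subunit of the plastid-encoded RNA polymerase, came nearest to the threshold. It read 8.65 and 8.41 in gun1-1, 9.56 and 9.07 in abi4-102, and 8.78 and 8.86 in Col-0, a difference of -0.78 ± 0.15 (SE, adjusted p 0.0934). The ribosomal protein gene rps2 differed by -0.64 with an adjusted p of 0.124. Another ribosomal protein gene, rpl36, had the opposite sign, with 7.94 and 8.52 in gun1-1, 7.66 and 7.40 in abi4-102, and 7.90 and 8.14 in Col-0. Some plastid transcripts varied strongly within Col-0, as in psaC, for a photosystem I subunit, which read 8.17 and 7.95 in gun1-1, 9.18 and 8.75 in abi4-102, and 7.97 and 9.35 in Col-0. For psaC the abi4-102 values lay inside the range of Col-0.

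Gene lists for hormone and stress responses gave few or no calls. Of 17 abscisic acid, cold and late embryogenesis genes 0 passed, with 1 higher and 2 lower at an unadjusted p under 0.05 and a median of -0.05. Their differences ran from -2.31 for OSM34 to 1.72 for COR15A, and the arrays of both genes are given below. XERICO, linked to abscisic acid metabolism, read 8.02 and 7.99 in gun1-1, 8.35 and 8.49 in abi4-102, and 8.24 and 8.10 in Col-0, a difference of -0.42 with an adjusted p of 0.273. None of the 7 seed markers passed, nor did any reach an unadjusted p under 0.05. In the auxin list, IAA29, a repressor of auxin signalling, read 4.95 and 5.02 in gun1-1, 4.25 and 4.30 in abi4-102, and 5.10 and 5.03 in Col-0, a difference of 0.71 ± 0.13 (SE, adjusted p 0.0649). None of the 21 auxin genes passed, and 1 was higher and 3 lower at an unadjusted p under 0.05, with a median of 0.08. The kinase gene WAG2 of that list had the opposite sign at -0.90, with an adjusted p of 0.2.

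HSA32, a heat stress protein, read 6.28 and 6.29 in gun1-1, 5.80 and 5.76 in abi4-102, and 5.96 and 5.95 in Col-0, a difference of 0.51 with an adjusted p of 0.0943. None of the 12 heat shock genes passed, and 3 were higher at an unadjusted p under 0.05, with a median of 0.16. Of 10 autophagy genes 9 lay below 0 with a median of -0.21 and none called, and ATG8D and ATG8B, whose proteins coat the autophagosome, differed by -0.51 and -0.43. In ATG8D the arrays read 5.87 and 6.08 in gun1-1, 6.41 and 6.56 in abi4-102, and 6.04 and 6.20 in Col-0.

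None passed among 26 mitochondrial energy genes, 16 flavonoid and phenylpropanoid genes, 7 clock genes, 13 glutathione transferases and 48 glycosyltransferases. None passed among 22 cytochrome P450 genes, 29 serine carboxypeptidase-like genes, 81 cell wall genes, 13 endoplasmic reticulum stress genes and 26 nutrient transport genes. None passed among 22 cell cycle and histone genes, 28 bZIP and bHLH genes, 21 silencing and chromatin genes and 6 reference genes. The medians of these lists ran between -0.09 and 0.11. Their members with the smallest p included UGT76E2 at 0.62 (adjusted p 0.196), IVD, of leucine breakdown, at -0.67 (adjusted p 0.247) and EXLA1, an expansin-like gene, at -1.07 (adjusted p 0.255).

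Many large differences did not pass, and in many of these the arrays of one line lay far apart. Of 125 probe sets with at least a 2-fold difference, 93 did not pass, 71 lower and 22 higher in gun1-1. In 12 of the 93 the arrays of the lines overlapped. Among the 71 lower ones, gun1-1 replicates were at least 2-fold apart in 30, and in 29 of these replicate 2 was the lower. The abi4-102 replicates were that far apart in 16 of the 71 and those of Col-0 in none. Over all probe sets, replicates were at least 2-fold apart in 208 for gun1-1, in 83 for abi4-102 and in 49 for Col-0.

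OSM34, an osmotin-like protein of stress and defence, read 9.85 and 7.40 in gun1-1, 11.21 and 10.66 in abi4-102, and 11.06 and 11.04 in Col-0, a difference of -2.31 ± 0.64 (SE, adjusted p 0.221). CHI, annotated as a putative chitinase, read 7.72 and 5.95 in gun1-1, 9.36 and 8.46 in abi4-102, and 8.84 and 8.88 in Col-0. In both genes abi4-102 was close to Col-0, gun1-1 was lower, and gun1-1 replicate 2 was much lower than replicate 1. The locus AT5G38910 had the largest difference that did not pass, at -3.76, with 3.80 and 3.46 in gun1-1, 8.12 and 6.66 in abi4-102, and 6.28 and 6.04 in Col-0. COR15A, a cold-regulated chloroplast protein, read 8.11 and 8.17 in gun1-1, 7.20 and 5.63 in abi4-102, and 8.08 and 7.84 in Col-0, a difference of 1.72 with an adjusted p of 0.344. With lincomycin OSM34 and CHI passed as lower in gun1-1, with differences of -3.10 and -2.50 and adjusted p-values of 0.011 and 0.0403. These genes were chosen after their values were seen.

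Positions could be given for the 22 called nuclear genes with a name, and not for the other called probe sets. Of the probe sets naming 1 nuclear gene, 3 passed on chromosome 1 (0.0869%), 5 on chromosome 2 (0.227%), 4 on chromosome 3 (0.146%), 2 on chromosome 4 (0.102%) and 8 on chromosome 5 (0.266%). None of the 69 probe sets naming 1 plastid gene passed. AT5G26020 and AT5G26270 were the closest pair of these 22, 35 genes apart in the TAIR10.1 gene order, and each of the others was at least 452 genes from the next of the 22. The nearest of the 22 was 577 genes from the ABI4 locus and 1462 from the GUN1 locus.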

How the data were processed

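ATH1 arrays of whole seedlings gave log2 values that the authors deposited in 1 table; RMA is named in the submitters' processing notes, with no version. RMA assumes equal distributions, so a shift in total mRNA cannot be seen, and 2 arrays a group limit the precision. Groups came from sample titles. After 64 control probe sets were left out, a linear model with empirical Bayes moderation (limma 3.58.1, R 4.3.3) was fitted to 22746 probe sets on all 12 arrays with 6 group means (6 residual and 4.75 prior degrees of freedom), with Benjamini-Hochberg adjustment, two-sided, threshold 0.05. On simulated data for the gun1-1 and abi4-102 comparison, over 22746 probe sets, 17.9% of changes of 0.5, 74.6% of 1 and 97% of 2 (log2) were recovered, and 10 unchanged probe sets were called.

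Genes came from GEO's platform annotation, 13436 of 13513 single-gene probe sets matching the TAIR10.1 gene table; a gene with several probe sets was read from the brightest. Named were up to 15 called genes per direction with fully separate arrays, and per list up to 4 called members per direction, or the 2 with the smallest p. The members and the 34 lists were chosen with earlier results of these data known; lists were corrected against annotated names after values were seen. The Col-0 response and the count of replicates 2-fold apart were added after the data were seen. Alternatives were other scalings, priors, weights, filters, array subsets, a block and leaving out arrays. One list is not reported here.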

Additional observations from a re-analysis of the deposited data

Results flagged for a closer look

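In 5 of the 48 probe sets that passed between gun1-1 and abi4-102 on plain medium, the difference between the lines itself differed with lincomycin, by limma's interaction test with adjustment over all 22746 probe sets. Because the 48 were picked on the arrays without lincomycin, which the interaction also uses, these values are partly set by that choice. AT3G28270 had an interaction of 3.26, with a difference of 4.08 with lincomycin and 0.82 without. 262113_at had an interaction of 1.38, with a difference of 2.70 with lincomycin and 1.31 without. 260309_at had an interaction of 1.09, with 1.91 with lincomycin and 0.82 without. 254232_at had an interaction of 1.10, with -0.07 with lincomycin, which did not pass, and -1.17 without. 266364_at had an interaction of 1.46, and its difference was 0.60 with lincomycin (adjusted p 0.0179) and -0.86 without (adjusted p 0.0346), so it passed in opposite directions. No group had enough arrays to look for a single deviating one.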

How the results depend on the processing

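None of the 24 named genes that passed between gun1-1 and abi4-102 without lincomycin changed sign under an alternative. The larger share of calls changed side for abi4-102 against Col-0 (757 higher, 845 lower with weights), gun1-1 against Col-0 (2 and 3 with 6 arrays, 3 and 4 without gun1-1 replicate 1) and the Col-0 response (1935 and 1936 after centring, 293 and 609 at a log2 difference of at least 1, and 1260 and 1492, 1118 and 1204, or 913 and 1186 without lincomycin-treated replicate 1 or untreated replicate 1 or 2). For gun1-1 against abi4-102 without lincomycin, 48 probe sets passed; the number was 95 with array quality weights, 78 with an intensity trend and robust prior, 17 with only the 4 compared arrays, 24 among probe sets naming 1 gene, and 18 to 50 leaving out an array. The 24 named genes all passed with weights, trend or centring, and 9 of them with only the 4 arrays. With lincomycin, 2478 passed, against 1531 with weights, 1311 with 4 arrays, 1295 naming 1 gene, 559 at a log2 difference of at least 1, and 1450 to 2018 leaving out an array. The interaction passed in 121, against 76 with weights, 205 with the trend, 44 naming 1 gene, and 20 to 104 leaving out an array. For gun1-1 against Col-0, 5 passed, against 3 naming 1 gene, 2 after repeated quantile normalization, 1 among the upper 60%, and 0 (limma, 748 at an unadjusted p under 0.05) to 24 leaving out an array. For abi4-102 against Col-0, 383 passed, against 1602 with weights, 134 naming 1 gene, 121 at a log2 difference of at least 1, and 39 to 189 leaving out an array. For the Col-0 response, 3948 passed, against 1960 naming 1 gene, 902 at a log2 difference of at least 1, and 2099 to 2949 leaving out an array; these alternatives were added after the data were seen. Fewer arrays or probe sets were fitted in the subsets by construction; otherwise the cause was not tested. The labels do not say that numbers pair samples. Deviations of same-numbered arrays correlated at 0.0605 between gun1-1 and abi4-102 on plain medium, and between -0.2832 and 0.281 over the 15 pairs of groups. With the number as a block 49, 2338, 85, 4, 358 and 3881 probe sets passed in the 6 comparisons in the above order, and 20 of the 24 named genes. Other settings kept each count within 1.5 times. Signal over background was not given, so its limit on dim genes was not measured.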
